A study of Mus musculus with 10 samples.

Results

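NK cells and type 1 innate lymphoid cells (ILC1) carry a set of surface receptors that restrain or adjust their activation. The 10 genes described here encode such receptors: Cd226, Tigit and Cd96, which bind nectins and nectin-like molecules, the checkpoint receptors Pdcd1 (PD-1), Ctla4, Lag3 and Havcr2 (TIM-3), and Cd160, Klrg1 and Cd200r1. They were chosen by name, as receptors of known inhibitory or nectin-binding function, and all 10 were found among the 24981 genes of each deposited expression table. The transcriptome was measured by RNA sequencing in sorted cells of BALB/C mice that received tofacitinib, an inhibitor of Janus kinases (JAK), or vehicle by oral gavage for 1 week. Splenic NK cells were sorted as NKp46+ CD3- cells, and liver ILC1 as CD3- Nkp46+ DX5dim TRAIL+ cells. Each cell type was represented by 3 libraries of vehicle-treated mice and 2 libraries of tofacitinib-treated mice, with no other allele or agent in any group. Cells of several mice were pooled for a library, so that the spread between libraries is a spread between pools and may be in part technical, and neither treatment effects on single mice nor effects on single cells can be seen. As these are bulk samples, fewer cells that express a gene and less RNA per cell cannot be told apart.

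CD226, TIGIT and CD96 share ligands, of which the poliovirus receptor CD155 (encoded by Pvr) is the best known. CD226 activates the cell after binding, whereas TIGIT and, in mice, CD96 compete for the same ligands and are described mostly as inhibitory. PD-1, CTLA-4, LAG-3 and TIM-3 were characterized first on T cells, where they dampen signaling after chronic stimulation, and several of them are also found on innate lymphocytes, in particular on tissue-resident cells. Cytokines that signal through JAK and STAT proteins, IL-15 above all, maintain NK cells and ILC1, and the comparison of tofacitinib with vehicle asks how the genes expressed in these cells depend on that signaling.

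Promoter sequences are shown for Pdcd1, the gene with the largest difference between the ILC1 groups, and for Tigit and Cd96, which lie on the same chromosome and compete with CD226 for ligands. Windows for 6 of the 10 genes were taken from the RefSeq promoter table (GRCm38.p6, the assembly that mm10 names). Each window had 300 bases, from 250 before to 50 after the start site. The 6 are the genes used here, and not a count of the genes that the promoter table covers. Capitals mark matches, on either strand, to the STAT motif TTCNNNGAA or to the core GGAAA that NFAT proteins bind. Where matches overlap or touch, they form a single run of capitals. The windows are given 5′ to 3′ on the strand of the gene, here the minus strand for each.
Pdcd1 (chr1:94052504-94052803): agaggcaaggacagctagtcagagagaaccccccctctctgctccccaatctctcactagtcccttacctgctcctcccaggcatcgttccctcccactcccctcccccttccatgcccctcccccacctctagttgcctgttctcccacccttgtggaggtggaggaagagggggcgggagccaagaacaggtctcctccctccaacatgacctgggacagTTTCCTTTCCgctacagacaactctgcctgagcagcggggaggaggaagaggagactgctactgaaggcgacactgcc
Tigit (chr16:43664135-43664434): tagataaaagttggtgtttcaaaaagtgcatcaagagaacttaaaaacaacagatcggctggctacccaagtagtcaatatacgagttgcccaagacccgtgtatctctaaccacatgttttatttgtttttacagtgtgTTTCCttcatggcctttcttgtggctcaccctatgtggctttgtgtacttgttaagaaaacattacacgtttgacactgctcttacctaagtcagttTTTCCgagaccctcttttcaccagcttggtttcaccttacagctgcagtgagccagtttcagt
Cd96 (chr16:46120199-46120498): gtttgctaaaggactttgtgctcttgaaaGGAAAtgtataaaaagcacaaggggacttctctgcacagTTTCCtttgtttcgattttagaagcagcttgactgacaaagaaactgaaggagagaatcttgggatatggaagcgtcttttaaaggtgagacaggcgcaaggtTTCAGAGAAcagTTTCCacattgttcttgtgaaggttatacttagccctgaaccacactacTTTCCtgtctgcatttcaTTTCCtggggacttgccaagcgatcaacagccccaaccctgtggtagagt

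The Pdcd1 window held no STAT motif and 2 adjoining GGAAA cores, read on the opposite strand, 28 and 23 bases before the start site. The Tigit window held no STAT motif and 2 GGAAA cores, and the Cd96 window held 1 STAT motif and 5 GGAAA cores. Of all 32851 windows of this length, 8.30% held the STAT motif and 61.3% held the GGAAA core, so that the cores are common in promoters of any gene. A match is a match of letters and shows no binding. In the GENCODE M21 annotation of the same assembly the last 50 bases of the Pdcd1 and Cd96 windows lie in the transcribed gene, and Tigit starts within the last 50 bases of its window. Pdcd1 spans chr1:94038305-94052553, Tigit chr16:43648867-43664146 and Cd96 chr16:46035657-46120251, and Cd200r1 (chr16:44765736-44794978) lies between Tigit and Cd96.

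Defining markers separated the sorted populations. Eomes, the transcription factor that separates NK cells from ILC1, was at 173 to 212 RPKM (read density scaled for exon length and library size) in the NK libraries and at 2.44 to 6.29 in the ILC1 libraries. Itga1 (CD49a), a marker of liver ILC1, was at 19.4 to 40.0 RPKM in ILC1 and at 0.757 to 1.47 in NK cells, and Tnfsf10, which encodes the TRAIL protein of the sort, followed the same order. The summed level of the ILC1 list did not separate them, at 979 to 1791 RPKM in ILC1 and 993 to 1077 in NK cells with vehicle, and the NK libraries carried 72.4 to 121 RPKM of summed B cell markers. Libraries had 29199973 to 79258362 alignments. The 5 ILC1 libraries came from 3 sequencing runs, named A, B and C here. Run A held vehicle replicate 1, run B vehicle replicate 2 with tofacitinib replicate 1, and run C vehicle replicate 3 with tofacitinib replicate 2. Both run B libraries had lower values in general, with a median over tested genes of 7.58 and 8.94 RPKM against 11.9 to 13.2 in the other 3, and most ILC1 values given below are lower in that run. Tofacitinib replicate 1 of ILC1 also stood apart in its markers of other cells. Its summed level of the 10 neutrophil markers was 167 RPKM, against 2.87 to 16.5 in the other 4 ILC1 libraries, and that of the 9 erythroid markers measured was 389 RPKM, against 1.48 to 36.0. Markers of B cells and dendritic cells were higher in both ILC1 tofacitinib libraries than in any ILC1 vehicle library. The lowest sum of B cell markers was 5.97 RPKM with vehicle and 15.3 with tofacitinib, and summed dendritic cell markers were at 27.0 to 41.4 RPKM with vehicle and 48.0 to 97.8 with tofacitinib. Of these markers Fcmr (log2 change 2.91, limma adjusted p = 1.11e-07), Cd79a (1.86, 0.0141) and H2-Aa (1.76, 0.0423) rose, the first pair having entered the test only through their tofacitinib group. NK libraries carried replicate letters in the same arrangement, and their medians lay between 12.5 and 12.9 RPKM.

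The 2 cell types differed widely in these receptors, but all NK libraries came from spleen and all ILC1 libraries from liver. Cell type and organ therefore cannot be told apart. RPKM divides by exon length, so levels of different genes can be set side by side within a library, but each cell type had a table of its own with its own normalization, and the differences between cell types are given as a description, with no test. In NK cells of vehicle-treated mice, Klrg1 stood far above the others, at 154 RPKM ± 14.7 (SD, n = 3). Cd226 (31.3 ± 3.56) and Cd96 (28.9 ± 3.10) came next and did not separate beyond their spread. Cd160 (14.4 ± 2.95) and Tigit (9.52 ± 2.22) overlapped in range, as did Lag3 (2.53 ± 0.775) and Cd200r1 (1.53 ± 0.230). Havcr2, Ctla4 and Pdcd1 were at the bottom, with no library above 0.138 RPKM. In ILC1 of vehicle-treated mice the order began with Cd226 (124 RPKM ± 31.3, SD, n = 3), followed by Cd160 (88.5 ± 27.7), Cd96 (62.0 ± 23.7), Cd200r1 (44.0 ± 11.4) and Lag3 (32.3 ± 8.98), each of which overlapped its neighbor. Tigit (14.6 ± 1.10) lay below all of these, and Pdcd1 (6.83 ± 0.950) and Klrg1 (4.95 ± 2.67) below Tigit. Ctla4 (0.483 ± 0.122) and Havcr2 (0.249 ± 0.206) were again the lowest.

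**Figure D1:**
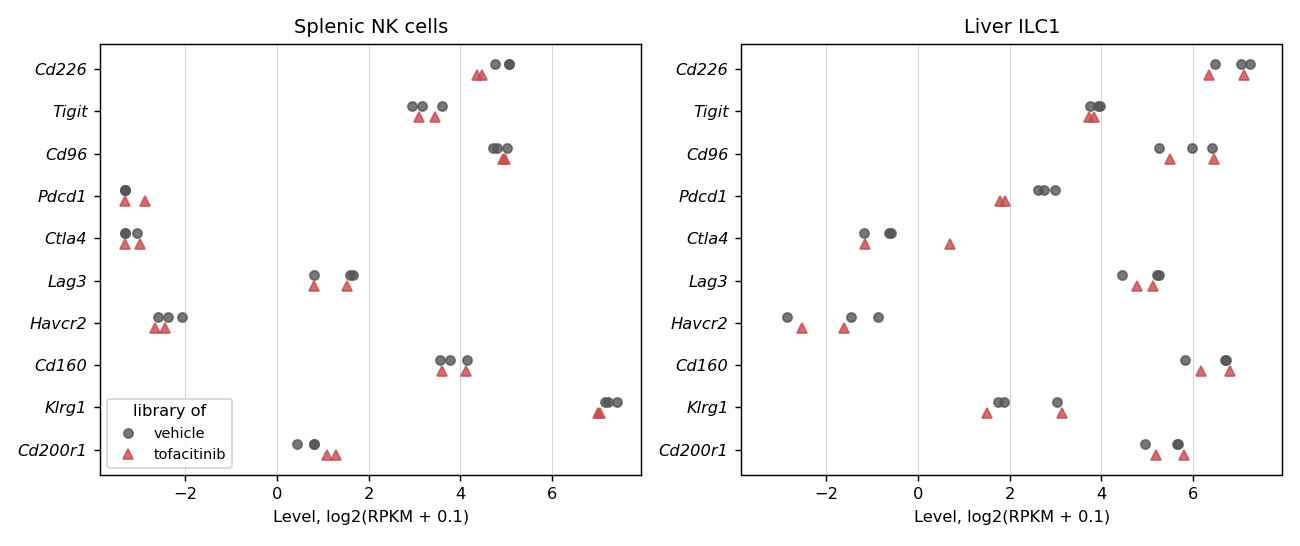
Level of each receptor gene in each library, as log2(RPKM + 0.1), in splenic NK cells (left) and liver ILC1 (right), where circles are vehicle libraries and triangles tofacitinib libraries. Klrg1 leads in NK cells and lies near the lower end in ILC1, whereas Lag3, Cd200r1 and Pdcd1 are higher in ILC1.

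Between the vehicle groups Cd200r1 and Klrg1 differed in opposite directions. The mean level of Cd200r1, the receptor for the CD200 protein, was 28.8-fold higher in ILC1, and that of Klrg1, a receptor for cadherins that marks late NK cell stages, was 31.2-fold higher in NK cells. Lag3, a CD4-related receptor, was 12.7-fold higher in ILC1, Cd160 was 6.17-fold higher, Cd226 3.97-fold, Cd96 2.15-fold and Tigit 1.53-fold. Pdcd1 was listed at 0 in all 3 vehicle libraries of NK cells, so that no ratio is given. None is given for Ctla4 either, whose 0.483 RPKM in ILC1 stood against a level near 0 in NK cells. Over all 10 libraries, treatment included, the ranges of the 2 cell types did not overlap for any of the 10 genes other than Havcr2. The share of all genes that separated in this way was not computed, so the separation is not read as particular to these receptors.

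Among the nectin-binding receptors, Cd226 was lower in NK cells of tofacitinib-treated mice while Cd96 and Tigit did not pass the test. Cd226 was at 33.4, 27.2 and 33.3 RPKM in the vehicle libraries and at 20.6 and 22.2 in the tofacitinib libraries. Both tofacitinib libraries lay below every vehicle library, as they did for 23.9% of all tested genes. The log2 change was -0.54 (SE 0.105, 95% interval -0.78 to -0.30, fold 0.688, limma adjusted p = 0.0269), computed on log2(RPKM + 0.1) and adjusted over all 9472 genes tested. Within the replicate letters the differences were -0.40 and -0.58. Cd226 was the only one of the 7 members tested in NK cells that fell, and none rose. Over all tested genes 3.02% fell and 1.79% rose at the same threshold, so 1 of 7 is a small count and is read with this share beside it. The call depended on single libraries. It was kept without vehicle replicate 2 (-0.64, limma adjusted p = 0.00288), and lost without vehicle replicate 1 (-0.49, limma adjusted p = 0.0841), vehicle replicate 3 (-0.49, 0.0534), tofacitinib replicate 1 (-0.48, 0.290) or tofacitinib replicate 2 (-0.60, 0.132).

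Cd96 had 32.3, 27.9 and 26.3 RPKM in the NK vehicle libraries and 31.7 and 30.4 in the tofacitinib libraries. The groups overlapped, and the log2 change was 0.11 (SE 0.0977, 95% interval -0.11 to 0.33, limma adjusted p = 0.531). Tigit had 12.0, 8.91 and 7.68 RPKM with vehicle and 8.55 and 10.8 with tofacitinib. These groups overlapped as well, by a log2 change of 0.04 (SE 0.178, 95% interval -0.37 to 0.44, limma adjusted p = 0.923).

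The order of the activating and the competing receptors in NK cells therefore differed between the groups. With vehicle, Cd226 and Cd96 overlapped in range. With tofacitinib, Cd96 (30.4 to 31.7 RPKM) lay above Cd226 (20.6 to 22.2) in both libraries. The ratio of Cd226 to Cd96 within a library, which does not depend on how libraries are scaled, was 1.03, 0.973 and 1.26 with vehicle and 0.649 and 0.731 with tofacitinib. The ratio of Cd226 to Tigit was 2.78, 3.05 and 4.34 with vehicle and 2.41 and 2.06 with tofacitinib. In both ratios every vehicle library exceeded both tofacitinib libraries. The ratio of Cd96 to Tigit overlapped between the groups, from 2.70 to 3.43 with vehicle and 2.82 to 3.70 with tofacitinib. These ratios were not tested, since they repeat the difference of Cd226.

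**Figure D2:**
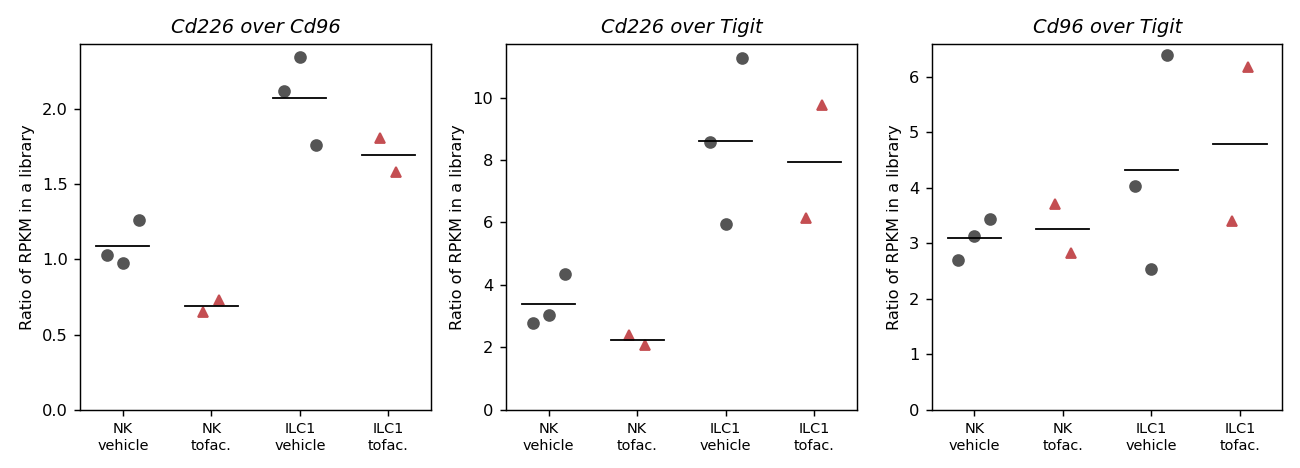
Ratio of RPKM values within each library for Cd226 over Cd96, Cd226 over Tigit and Cd96 over Tigit, with circles for vehicle, triangles for tofacitinib and a line at the group mean. In NK cells the 2 ratios with Cd226 on top do not overlap between groups, with Cd226 over Cd96 at 0.973 to 1.26 with vehicle and 0.649 to 0.731 with tofacitinib.

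In ILC1 none of these 3 genes was called. Cd226 was at 133, 89.4 and 150 RPKM with vehicle and 81.1 and 139 with tofacitinib, and the groups overlapped. Its log2 change was -0.19 (SE 0.543, 95% interval -1.26 to 0.87, limma adjusted p = 1.00), with -0.14 in run B and -0.12 in run C. Cd96 was at 62.5, 38.1 and 85.5 RPKM with vehicle and 44.9 and 87.9 with tofacitinib, with differences of 0.24 and 0.04 within the runs. Tigit was at 15.5, 15.0 and 13.4 RPKM with vehicle and 13.2 and 14.2 with tofacitinib in the ILC1 libraries, or at 1.02 to 1.98 times the median of each library. In RPKM it did not follow the lower values of run B, where its within-run difference was -0.18, against 0.09 in run C. The ratio of Cd226 to Cd96 in ILC1 was 2.12, 2.35 and 1.76 with vehicle and 1.80 and 1.58 with tofacitinib, and the groups overlapped. Cd226 exceeded Cd96 in all 5 ILC1 libraries, with or without tofacitinib. The log2 change of Cd226 in ILC1 minus that in NK cells was 0.35 (SE 0.494, limma adjusted p = 1.00), so the changes in the 2 cell types were not shown to differ.

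Of the checkpoint receptors, Pdcd1 was lower in ILC1 of tofacitinib-treated mice in every library, but it missed the adjusted threshold unless sequencing run was in the fit. Pdcd1, which binds the ligands encoded by Cd274 and Pdcd1lg2, was at 6.60, 6.02 and 7.88 RPKM with vehicle and at 3.35 and 3.64 with tofacitinib. Every vehicle library exceeded both tofacitinib libraries, the run B vehicle library included. The log2 change was -0.94 (SE 0.467, 95% interval -1.86 to -0.03, fold 0.521, limma adjusted p = 1.00). Within run B the difference was -0.83 and within run C -1.09. After the median difference of all tested genes in each run was taken off, these became -1.05 and -1.06. With run as a block the log2 change was -0.96 (SE 0.228, limma adjusted p = 0.00146). In ILC1, with or without the block, limma took the spread of each gene entirely from the trend over all genes. Without the block the difference between runs is part of that spread. With it the treatments are compared within runs B and C only, and the p-value does not measure the spread of Pdcd1 itself.

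None of the 8 members tested in ILC1 passed the adjusted threshold with limma, against 0.470% of all 9366 genes tested, and 1 of them, Pdcd1, had an unadjusted p under 0.05, against 2.22%. Pdcd1 also met the looser threshold that the study used for its gene lists (unadjusted p under 0.05 and a fold below 0.6), which 1.41% of tested genes met in this direction. No member met it in NK cells, where 1.1% of tested genes met it in the lower direction. With run as a block 1 of the 8 fell and none rose, against 2.34% and 1.99% of all genes. Both tofacitinib libraries lay below the vehicle range for 1 of the 8, and for 3.43% of all tested genes. When limma used the variance of each gene alone, none of the 8 was called.

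Markers of other cells that may carry Pdcd1 were measured beside it. The T cell gene Cd3e was at 2.14, 3.43 and 3.70 RPKM in the ILC1 vehicle libraries and 3.76 and 4.82 in the tofacitinib libraries. The summed level of the 12 T cell markers measured was 142 to 281 RPKM with vehicle and 157 to 242 with tofacitinib, none of them at 0, and most of it was Cd3g (118 to 247 RPKM). Their part in the Pdcd1 level, and that of the B cell and dendritic cell markers that were higher with tofacitinib, was not tested. In NK cells, Pdcd1 was listed at 0 in 4 of 5 libraries and at 0.0354 RPKM in tofacitinib replicate 2, which corresponds to about 4.9 reads.

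Ctla4, which competes with CD28 for CD80 and CD86, was too low for the test in both cell types. In ILC1 it was at 0.342, 0.562 and 0.545 RPKM with vehicle and 0.346 and 1.51 with tofacitinib, about 36.4 to 219 reads a library. Only tofacitinib replicate 2 stood above the rest. The same library had the highest Cd3e, Cd3d (6.55 RPKM), Cd4, Cd5 and Cd6 of the 5 ILC1 libraries. The other T cell markers, Cd3g among them, were not highest in it. Its summed T cell markers were at 242 RPKM, against 281 in vehicle replicate 3. Summed B cell and dendritic cell markers were higher in both tofacitinib libraries than with vehicle. The part of these markers in the Ctla4 level was not tested. Foxp3, which marks regulatory T cells, was at 0.0591 RPKM in tofacitinib replicate 2 and at most 0.192 in the other ILC1 libraries. In NK cells Ctla4 was listed at 0 in 3 of 5 libraries and did not exceed 0.0265 RPKM.

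Lag3, whose product binds MHC class II and FGL1, did not pass the test in either cell type. In ILC1 it was at 38.1, 21.9 and 36.8 RPKM with vehicle and 27.4 and 34.8 with tofacitinib. The groups overlapped, with a log2 change of -0.02 (SE 0.518), 0.32 within run B and -0.08 within run C. In NK cells it was at 2.91, 1.64 and 3.05 RPKM with vehicle and 1.65 and 2.77 with tofacitinib, with a log2 change of -0.19 (SE 0.299, 95% interval -0.86 to 0.49). The 2 NK libraries of replicate letter B were the low ones in each group, so that the difference within that letter was 0.00.

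Havcr2, the receptor TIM-3 that binds galectin-9 among others, stayed below the level needed for testing. In ILC1 it was at 0.261, 0.449 and 0.0374 RPKM with vehicle and 0.226 and 0.0738 with tofacitinib. The 2 low values were those of run C. The summed macrophage markers were also lowest in the run C libraries, at 2.56 and 2.30 RPKM against 6.25 to 15.1 in the other 3, and their part in the Havcr2 level was not tested. In NK cells Havcr2 was at 0.0574 to 0.138 RPKM, about 7.2 to 23.6 reads a library.

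Klrg1 and Cd200r1 differed in opposite directions in NK cells without reaching the adjusted threshold. Klrg1 was at 151, 171 and 142 RPKM with vehicle and 129 and 132 with tofacitinib. Both tofacitinib libraries lay below the vehicle range, at a log2 difference of -0.24 (SE 0.0981, limma adjusted p = 0.191) and differences of -0.40 and -0.11 within the letters. Cd200r1 was at 1.26, 1.66 and 1.66 RPKM with vehicle and 2.04 and 2.36 with tofacitinib. Both tofacitinib libraries lay above the vehicle range, at a log2 difference of 0.50 (SE 0.203, limma adjusted p = 0.181) and differences of 0.28 and 0.48 within the letters. Cd200r1 entered the test only through its tofacitinib group, so it had to be higher there to be tested at all. Of the 7 members tested, 2 lay wholly below and 1 wholly above the vehicle range in NK cells. Over all tested genes 23.9% and 20.2% did so, which makes such separation common in this comparison. Likewise 3 of the 7 had an unadjusted p under 0.05, against 23.3% of all tested genes.

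**Figure D3:**
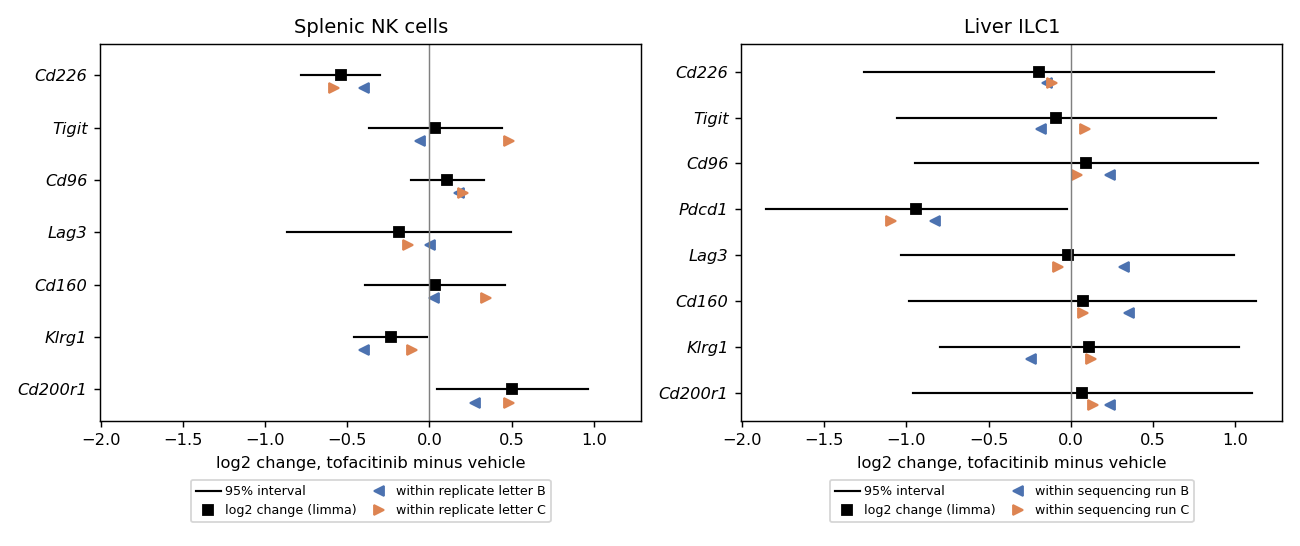
Log2 change between tofacitinib and vehicle of the members tested in NK cells (left) and ILC1 (right), as squares with 95% intervals, and, below each, the difference within letter or run B and C. The interval of Cd226 in NK cells runs from -0.78 to -0.30, and that of Pdcd1 in ILC1 from -1.86 to -0.03 with both within-run values below 0.

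Klrg1 in ILC1 followed the sequencing run and not the treatment. It was at 3.56, 3.26 and 8.03 RPKM with vehicle and 2.74 and 8.75 with tofacitinib, and the 2 high values were those of run C. Its log2 change was 0.11 (SE 0.465), with -0.24 within run B and 0.12 within run C. Some NK cell genes were also higher in the run C libraries. The summed level of the 10 NK cell markers did not separate by run, at 2953 RPKM (vehicle) and 1693 (tofacitinib) in run C and 1917 (vehicle) in run A. Eomes was at 4.94 and 6.29 RPKM in run C and at 2.44 to 3.01 in the other 3 ILC1 libraries. S1pr5, which encodes a sphingosine phosphate receptor of mature NK cells, was at 3.90 and 5.11 RPKM in run C and at 1.36 to 1.64 in the others. Cma1, a mast cell protease gene that NK cells also express, was at 4.24 and 6.86 RPKM in run C and at most 0.572 in the others. Their part in the Klrg1 level of ILC1 was not tested.

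Cd200r1 and Cd160 were among the high receptors of ILC1, and neither passed the test there. Cd200r1 was at 50.5, 30.8 and 50.7 RPKM with vehicle and 36.4 and 55.7 with tofacitinib, with a log2 change of 0.07 (SE 0.526), 0.24 within run B and 0.14 within run C. Cd160, a glycosylphosphatidylinositol-anchored receptor for the protein that Tnfrsf14 encodes, was at 103, 56.5 and 106 RPKM with vehicle and 72.2 and 111 with tofacitinib. Its log2 change was 0.07 (SE 0.539), with 0.35 within run B and 0.08 within run C. For both genes the lower value of each group was that of run B. In NK cells Cd160 was at 17.6, 11.8 and 13.7 RPKM with vehicle and 12.0 and 17.5 with tofacitinib, which overlapped (log2 change 0.03, SE 0.188). Exons of Cd160 overlap those of Pdzk1 on the opposite strand, and Pdzk1 was at 1.25 to 2.92 RPKM in the 10 libraries, and as no source used here states that reads were counted by strand, reads from the overlap cannot be assigned to either gene. Cd200r1 belongs to a family of similar genes, and reads that match more than 1 copy would make its level uncertain. Its relative Cd200r2, which encodes an activating form, had a similar distribution, at 20.0 to 43.2 RPKM in ILC1 and 0.632 to 1.34 in NK cells, whereas Cd200r4 was at 18.4 to 34.0 RPKM in ILC1 and 23.5 to 27.0 in NK cells.

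**Figure D4:**
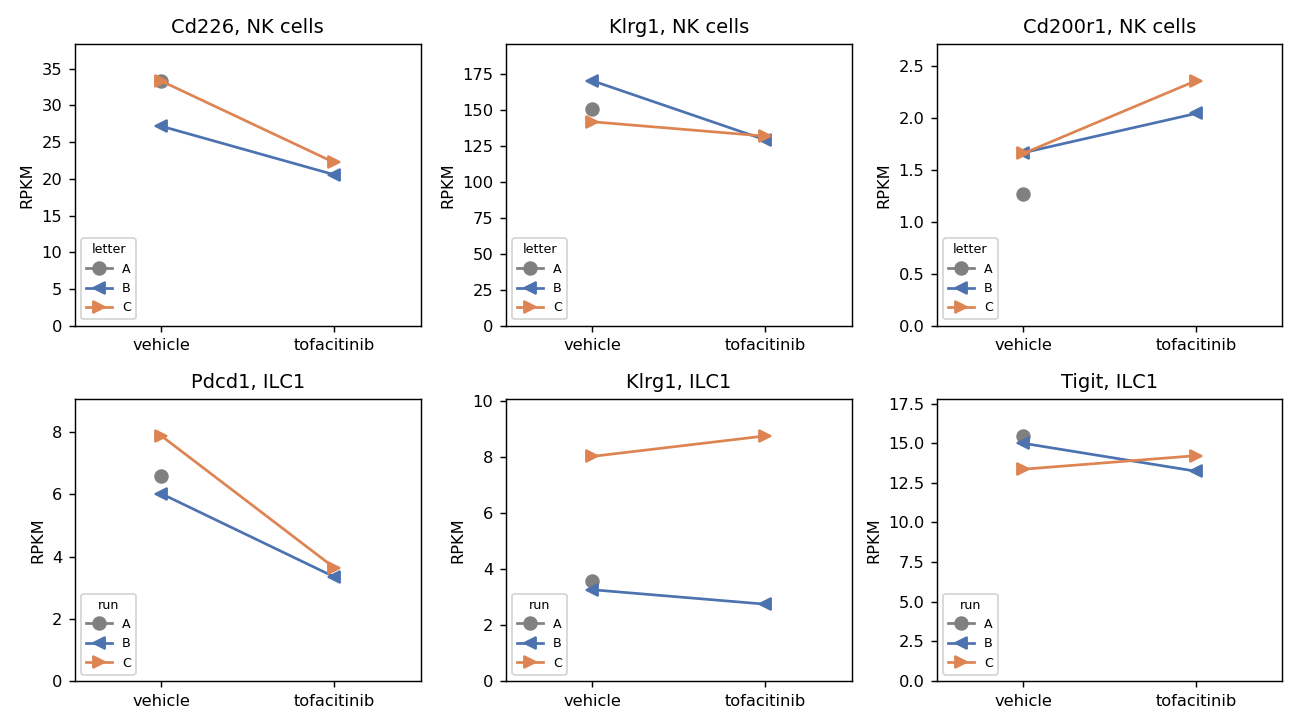
RPKM of Cd226, Klrg1 and Cd200r1 in NK cells (top) and of Pdcd1, Klrg1 and Tigit in ILC1 (bottom) in each library, where lines join libraries of the same replicate letter or sequencing run and the axes start at 0. Pdcd1 is lower at the tofacitinib end of both lines, from 6.02 and 7.88 to 3.35 and 3.64 RPKM, while Klrg1 in ILC1 separates by run.

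The difference of response between ILC1 and NK cells was tested for the 7 members measured in both. None was called by limma and none had an unadjusted p under 0.05 (the lowest was 0.345, for Cd200r1), against 0.145% and 0.835% of 8981 genes that could be tested in both. The standard errors of these differences were 0.458 to 0.494 on the log2 scale, so that differences of the size measured for Cd226 in NK cells could not be resolved. This fit used a common spread for both cell types. For Cd226 its SE (0.494) was below that of the ILC1 change alone (0.543), so these standard errors may be too small.

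Ligands of the receptors were measured in the same cells. Of the 20 ligand genes, 6 were high enough for testing in NK cells and 8 in ILC1. Lgals3, which encodes galectin-3, a ligand of LAG-3, fell in NK cells from 27.9 RPKM ± 3.19 (SD, n = 3) to 15.9 ± 0.113 (SD, n = 2), a log2 difference of -0.80 (SE 0.102; limma, adjusted p = 0.00512). The other 5 did not pass, where 3.02% of all tested genes fell. In ILC1 none passed, and with run as a block Lgals3 fell there too (-0.81, limma adjusted p = 0.00519). In that block fit 2.34% of all tested genes fell. The median log2 change of the tested ligands was -0.09 in NK cells and -0.13 in ILC1, against -0.01 and 0.01 over all tested genes. Pvr, the shared ligand of CD226, TIGIT and CD96, was at 2.01 to 2.45 RPKM in NK cells and 3.15 to 5.40 in ILC1, whereas Nectin2, another of their ligands, had a group mean of at most 0.116 RPKM. Cd274, which encodes PD-L1, was at 7.45 to 9.40 RPKM in NK cells and 10.6 to 15.0 in ILC1. Cd200, the ligand of CD200R1, was at most 0.953 RPKM in any library.

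Of the 16 receptor relatives measured, Klrb1c, which encodes NK1.1 in other strains, fell in NK cells from 200 to 138 RPKM (log2 change -0.54, SE 0.0857, limma adjusted p = 0.0131). The other 9 tested there were not called, where 3.02% of all tested genes fell. In ILC1 none of 11 was called, and with run as a block the costimulatory receptor Cd28 (1.03, limma adjusted p = 0.000346) and the adhesion receptor Cd2 (0.94, 0.000661) rose. In that block fit 1.99% of all tested genes rose. Among other inhibitory receptors, 1 of 11 fell and 1 rose in NK cells, where 3.02% of all tested genes fell and 1.79% rose. With the letter as a block 3 of the 11 fell and 1 rose, where 365 of all 9472 tested genes fell and 286 rose. Nt5e, the ecto-enzyme CD73, fell from 4.74 to 3.15 RPKM (-0.57, limma adjusted p = 0.0300), and Fcgr2b, an inhibitory Fc receptor, rose from 47.7 to 65.5 RPKM (0.45, 0.0273). The call of Nt5e was lost without vehicle replicate 1 or vehicle replicate 3, and that of Fcgr2b without vehicle replicate 1. Fcgr2b is also expressed by B cells, whose summed markers were at 72.4 to 113 RPKM with vehicle and 92.4 to 121 with tofacitinib in these libraries, with a median log2 change of 0.31, and their part in the Fcgr2b level was not tested. With the letter as a block Lilrb4a (-1.06, limma adjusted p = 0.0188) and Entpd1 (-0.39, 0.0432) fell as well. Lilrb4a, at 1.32 to 2.57 RPKM with vehicle and 0.760 and 0.918 with tofacitinib, entered the NK test only through its vehicle group. It therefore had to be lower with tofacitinib to be tested. In ILC1 none of 9 was called, and with run as a block Lilrb4a, which carries inhibitory motifs, fell (-1.11, limma adjusted p = 8.19e-05). With that block 2.34% of all tested genes fell.

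Of 22 genes of inhibitory signaling tested in NK cells, 2 fell and 1 rose, where 3.02% and 1.79% of all tested genes did. Socs3, a feedback inhibitor of cytokine signaling that STAT proteins induce, fell from 5.74 to 3.07 RPKM (-0.88, limma adjusted p = 0.00765), and Sh2d1b1, the adaptor EAT-2 of SLAM family receptors, fell from 15.5 to 10.6 (-0.55, 0.0107). Dgka, a diacylglycerol kinase that limits signaling, rose from 46.1 to 65.8 RPKM (0.52, 0.0344). Socs3 and Sh2d1b1 were not called without tofacitinib replicate 1 or without tofacitinib replicate 2 (highest limma adjusted p = 0.0765 and 0.132), and the call of Dgka was kept for 2 of the 5 libraries left out. With run as a block, Sh2d1b1 (-0.75, limma adjusted p = 0.0261) and Dgka (0.74, 0.0224) were also the 2 called of 22 in ILC1, where none was called without it. In that fit 2.34% of all tested genes fell and 1.99% rose. Of the 14 genes of CD226 signaling, only Pik3cd, a catalytic subunit of PI3 kinase, fell in NK cells (-0.35, limma adjusted p = 0.0492), against 3.02% of all tested genes. It was not called with the letter as a block. None was called in ILC1.

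Among 22 transcription factors tested that regulate checkpoint receptors in lymphocytes, Bcl6, a transcriptional repressor, rose in both cell types. It went from 5.32 to 10.3 RPKM in NK cells (log2 change 0.95, SE 0.112, limma adjusted p = 0.00387) and from 1.84 to 6.79 in ILC1 (1.81, SE 0.457, limma adjusted p = 0.0220). Bcl6 entered the ILC1 test only through its tofacitinib group, so it had to be higher there to be tested. Its call was lost in NK cells without tofacitinib replicate 1 (limma adjusted p = 0.0521), and in ILC1 it was kept only when vehicle replicate 2 was left out. In ILC1 the B cell and dendritic cell markers were higher in the same 2 tofacitinib libraries, and their part in the Bcl6 level was not tested. Nr4a1, an early gene of receptor signaling, fell in NK cells from 8.50 to 4.53 RPKM (-0.90, limma adjusted p = 0.00550). In NK cells 1 of the 22 thus fell and 1 rose, against 3.02% and 1.79% of all tested genes. With run as a block Tcf7 (1.73, limma adjusted p = 8.75e-12) and Ikzf2 (0.83, 0.00882) rose in ILC1 beside Bcl6, where 1.99% of all tested genes rose. Of the 10 genes of NK cell maturation, a list that includes Klrg1, Il7r rose in NK cells from 20.1 to 48.3 RPKM (1.25, limma adjusted p = 0.00117) and Cx3cr1, a chemokine receptor of mature NK cells, fell (-0.50, 0.0377). The other 8 were not called in NK cells, where 1.79% of all tested genes rose and 3.02% fell. None of the 8 tested in ILC1 was called without the block, and with it 4 of 8 rose, against 1.99% of all tested genes. These were Il7r (1.99, limma adjusted p = 5.65e-16), the adhesion gene Emb (0.88, 0.00519), the cytokine receptor gene Kit (0.79, 0.0131) and the integrin gene Itgam (0.94, 0.0425). Itgam, at 0.529 to 2.91 RPKM with vehicle and 1.57 and 4.07 with tofacitinib, entered the test only through its tofacitinib group. It therefore had to be higher there to be tested. The ligands, relatives, other inhibitory receptors, signaling genes, transcription factors and maturation genes called in NK cells without a block were refitted with each library left out. Il7r was called for each of the 5 libraries left out, Nt5e for 1 and the others for 2 to 4.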

How the data were processed

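The authors sequenced 50-bp single-end reads and, per their processing notes and methods, used CASAVA 1.8.2 for base calling, TopHat2 2.1.1 for alignment (mm10) and Partek for RPKM. The deposited RPKM values came as separate tables for NK cells and ILC1. Deposited sample sheets gave alignments, ILC1 sequencing runs and NK replicate letters, whose meaning is not given in the sources used here. Deposited tables of the authors' own group means, ratios, p-values and q-values were not used. The mice were BALB/C, and mm10 is a genome of another strain.

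Treatments were compared separately in NK cells and ILC1 on log2(RPKM + 0.1). Two-sided moderated tests with a variance trend came from limma (version 3.58.1, under R 4.3.3), with Benjamini-Hochberg adjustment over all tested genes and a threshold of 0.05. Tested genes had a group mean of log2 above 1 in at least 1 group, and the 1296 names starting with Mir or Snor were left out. The cell types were compared by an interaction term over all 10 libraries. Approximate reads are RPKM times alignments times GENCODE M21 exon length. RPKM values carry no counts, so precision rests on the spread between libraries. In the fits with a run or letter block, treatments are compared within B and C only, and the spread comes entirely from the trend over all genes. Small p-values of these fits do not show how a single gene varies between libraries. All 10 members were named, and from other lists the genes called, at most 4 per list and cell type. Members and lists were chosen with earlier results of these data known. The fits were tested on simulated data. Promoters came from RefSeq. Genes of other lists not present by name in the tables were not analysed here.

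After group means were taken off, libraries of the same ILC1 run correlated over genes with r = 0.63 and 0.78. NK libraries of the same letter gave -0.14 and -0.16, so the letters do not pair the NK samples, and calls with the letter as a block are given only as an alternative.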

Additional observations from a re-analysis of the deposited data

How the results depend on the processing

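Alternatives were another pseudocount (1 or 0.01), no filter on low values, a filter on the mean over all libraries, scaling by library medians, quantile normalization, no variance trend, the variance of each gene alone, blocks, and leaving out each library. Median scaling together with the run or letter block was chosen after seeing the data. The count of members called in NK cells was 1, and 0 with no filter (Cd226 adjusted p = 0.280), with no variance trend (0.0545) and with the variance of each gene alone (0.251). It was 0 to 1 when a library was left out. In ILC1 the count was 0, and 1 with the run block and with median scaling and the run block (Pdcd1, -1.05, adjusted p = 0.000363). Without a block, Pdcd1 had an adjusted p of 0.0610 after median scaling and 0.0562 after quantile normalization. Scaling by medians also moved the share of lower genes among all ILC1 calls from 59.1% to 81.6%, and quantile normalization to 77.0%.

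The replicate numbers of the labels do not follow runs or letters. In a fit with the label number as a replicate block, 2 members were called in NK cells, Cd226 and Klrg1 (-0.29, adjusted p = 0.0331), and none in ILC1. Libraries that share a number correlated after group means were taken off with r = 0.02 and 0.14 in NK cells and 0.16 and -0.63 in ILC1. No pairing by number was seen, though so few libraries cannot settle it.

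Signs reversed only for changes that were not called. With the replicate block these were Tigit in NK cells (-0.11), Lag3 in ILC1 (0.10) and the difference of response of Cd96 (0.32). Under quantile normalization they were Lag3 in ILC1 (0.0221) and the difference of response of Cd96 (0.0205). With the run block they were Lag3 (0.12) and Klrg1 (-0.0581) in ILC1, and with median scaling added 0.0273 and -0.151. Leaving out a library gave, in NK cells, -0.13 to 0.21 for Tigit, -0.24 to 0.30 for Cd160 and -0.54 to 0.17 for Lag3. In ILC1 it gave -0.28 to 0.15 for Lag3, -0.71 to 0.93 for Klrg1, -0.39 to 0.58 for Cd96, -0.24 to 0.39 for Cd160, -0.24 to 0.38 for Cd200r1 and -0.58 to 0.19 for Cd226. For the difference of response it gave -0.50 to 0.47 for Cd96, -0.19 to 0.52 for Lag3, -0.27 to 0.35 for Cd160, -0.0397 to 0.73 for Cd226, -0.47 to 1.17 for Klrg1 and -0.30 to 0.0423 for Tigit. Pdcd1 in ILC1 stayed at -1.03 to -0.83. With 3 and 2 libraries a group, changes of the size of most members could not be resolved in ILC1.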
